A study of Mus musculus with 6 samples.

Results

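The genes described here are 41 enzymes, transporters and assembly factors of the peroxisome, chosen by name from a list and found under a single identifier each among the 54532 gene identifiers measured. They comprise 28 enzymes and transporters and 13 peroxins. The 6 RNA-seq libraries came from livers of untreated mice, 3 with wild-type Arid2 (WT) and 3 with a liver-specific knockout of it (LKO). ARID2 is a subunit of the PBAF chromatin remodelling complex, and the title of the series concerns fatty liver and the ubiquitination of JAK2. The sources used here do not give the allele, the Cre driver, the strain or the age of the mice. They also leave unsaid if a library stands for 1 animal, so the spread behind every p-value is that between libraries and may be technical. Values are FPKM, fragments scaled to transcript length and library size, on which levels of different genes can be compared.

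Peroxisomes shorten fatty acids that mitochondria handle poorly, such as very long-chain, branched and dicarboxylic acids, and they cleave the side chain of bile acid precursors. Their oxidases pass electrons directly to oxygen and make hydrogen peroxide, which catalase removes. Peroxins build the organelle: some insert membrane proteins, others carry folded enzymes across the membrane or divide the organelle. In rodent liver the nuclear receptor PPAR-alpha is known to raise many of the oxidation genes when fatty acids are abundant, as in fasting.

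Between 13947787 and 18159285 reads per library were recovered from the FPKM values. A count of 3 reads over 1 kb of exon was worth 0.156 to 0.236 FPKM, which covers counting error only. Both libraries numbered 1 stood apart: only 2003 genes in WT replicate 1 and 2368 in LKO replicate 1 were covered by 1 to 5 reads, while the remaining libraries had 3913 to 4263 such genes. Levels of the targeted gene overlapped between groups, with Arid2 FPKM of 2.65, 1.74 and 1.79 (WT) and 2.55, 1.33 and 2.04 (labelled LKO), in the order of replicates 1, 2 and 3 that all lists below keep. These values are sums over the whole gene and do not check the deleted part, so every direction below is between libraries by their labels. All 10 hepatocyte markers passed the filter, led by Alb, albumin, at 24010 FPKM or more in every library. Summed markers of B and plasma cells were at 8.71 to 18.1 FPKM in WT and 1.09 to 3.60 in LKO, with Ms4a1 at 0.08 FPKM or less throughout. Those of neutrophils and monocytes were at 0.753 to 3.40 and 3.04 to 13.6, with Ly6g listed at 0 in all 6 libraries. Erythroid markers summed to 139 to 330 FPKM in WT and 91.2 to 149 in LKO. Of 7 such markers 5 passed the filter, each with a log2 difference below 0 and a median of -0.78. Among them Alas2, the heme synthesis enzyme of red cell precursors, was at 13, 44.1 and 25.8 FPKM in WT and 1.77, 3.62 and 5.70 in LKO (log2 difference -2.54, limma adjusted p = 0.183). The part of other cells in the results below was not tested, and in bulk tissue fewer cells of a type and less RNA per cell cannot be told apart.

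Promoter sequences are shown for Hao2 and Ehhadh, the members with a listed promoter that lay furthest above WT in every library labelled LKO. They are also shown for Nudt7, which lay furthest below, and for Cat (catalase), which had an inexact match to the PPAR-alpha motif described next. Each is the 250 bases before the transcript start, taken from RefSeq on GRCm38.p6 (mm10 coordinates), where 34 of the 41 members had an entry. Capitals mark every GC box, GGGCGG or its reverse complement CCGCCC, and in Cat also 1 match to a direct repeat, AGGTCA followed by any base and AGGTCA again, the layout bound by PPAR-alpha with its partner RXR, searched on both strands with at most 2 mismatches over 12 letters.
Hao2, chr3:98893231-98893480, minus strand: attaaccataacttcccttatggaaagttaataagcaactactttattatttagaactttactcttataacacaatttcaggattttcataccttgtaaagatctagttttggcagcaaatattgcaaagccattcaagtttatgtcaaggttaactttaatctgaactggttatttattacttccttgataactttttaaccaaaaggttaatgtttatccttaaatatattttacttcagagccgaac
Ehhadh, chr16:21787835-21788084, minus strand: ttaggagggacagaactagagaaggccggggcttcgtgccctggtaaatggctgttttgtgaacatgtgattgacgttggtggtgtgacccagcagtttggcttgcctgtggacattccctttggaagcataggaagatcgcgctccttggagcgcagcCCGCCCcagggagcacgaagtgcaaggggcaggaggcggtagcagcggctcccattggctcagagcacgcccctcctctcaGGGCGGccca
Nudt7, chr8:114133324-114133573, plus strand: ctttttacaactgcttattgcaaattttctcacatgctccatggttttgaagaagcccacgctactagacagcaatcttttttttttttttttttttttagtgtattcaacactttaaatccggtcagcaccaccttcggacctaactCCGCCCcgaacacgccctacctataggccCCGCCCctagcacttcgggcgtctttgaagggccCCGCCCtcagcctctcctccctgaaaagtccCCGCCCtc
Cat, chr2:103485154-103485403, minus strand: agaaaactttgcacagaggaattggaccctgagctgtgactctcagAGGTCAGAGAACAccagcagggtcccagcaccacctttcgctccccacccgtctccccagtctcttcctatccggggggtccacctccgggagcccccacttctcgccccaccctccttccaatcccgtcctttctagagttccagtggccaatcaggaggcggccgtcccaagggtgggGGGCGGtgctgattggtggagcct

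The Hao2 window had no GC box and the lowest GC content of the 34 member windows, 28.4%, against a median of 56.4% over members and 52.4% over all 32851 promoter windows of the table. Only 1.04% of all windows were at or below it. The Nudt7 window held 4 GC boxes and the Ehhadh window 2. At least 1 GC box stood in 20 of the 34 member windows (58.8%) and in 32.7% of all windows. A match to the direct repeat, with 2 mismatches, was found in Cat alone among the 34 (2.94%), between positions -204 and -192 from the start. Matches with at most 2 mismatches stood in 3.24% of all windows, a share near that of the members. A match describes letters in this window and no match says nothing about sites elsewhere.

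No peroxisomal gene passed the test across all genes, while Hao2, Ehhadh, Hsd17b4 and Crot lay above every WT library in every library labelled LKO, and Nudt7, Agxt and Pex10 lay below. Of the 41 members, 40 passed the filter of a mean of at least 0.5 FPKM, and none of them had a limma adjusted p under 0.05, against 5 of 11672 genes tested (0.0428%). At an unadjusted p under 0.05, limma gave 3 members higher, Hao2, Ehhadh and Crot (7.5%, with 4.28% of all tested genes), and 2 lower, Nudt7 and Agxt (5.0%, with 4.93%). Groups did not overlap for 4 members above (10%, with 8.0% of all tested genes) and 3 below (7.5%, with 7.42%). These shares were near those of all genes. Hao2, counted among the higher members in both, passed the filter only through the libraries labelled LKO, with a WT mean of 0.196 FPKM. Log2 differences, on the log2(FPKM + 1) scale throughout, were above 0 for 29 of 40 members (72.5%, with 54.1% of all tested genes). Their median was 0.16, beside 0.03 for all tested genes. That median turned to -0.03 without WT replicate 1 and to -0.07 without LKO replicate 3, with 18 of 40 members above 0 in each case, and reached 0.39 without LKO replicate 1, with 36 of 40.

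**Figure D1:**
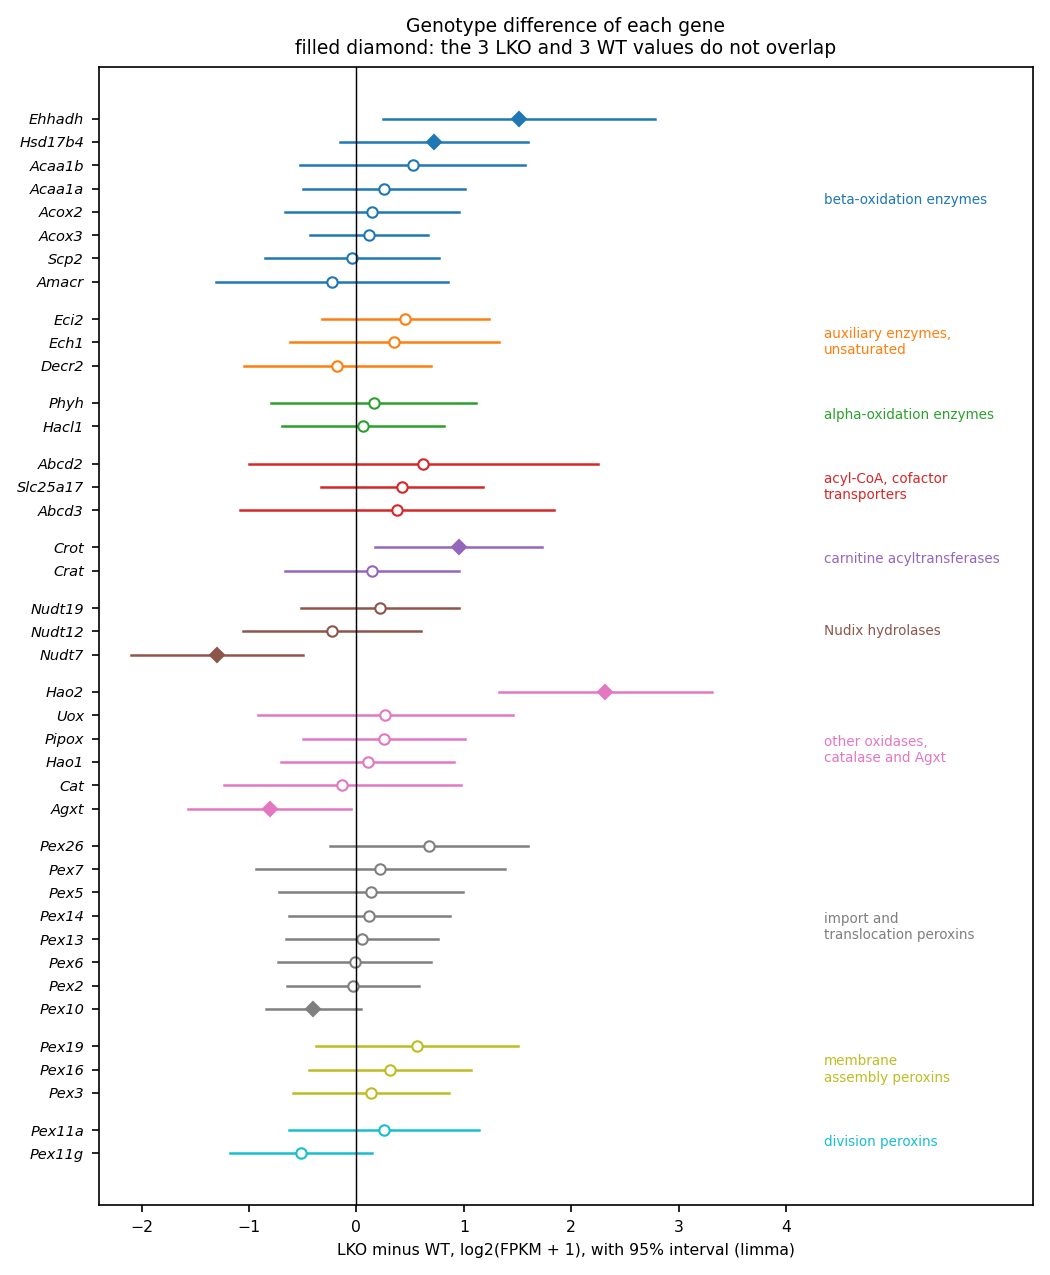
Log2 difference of each of the 40 members that passed the filter (horizontal axis, LKO minus WT on the log2(FPKM + 1) scale), with its 95% interval from limma, grouped by role. Filled diamonds mark the 7 members whose 3 LKO and 3 WT values do not overlap; Hao2 lies furthest right at 2.32 and Nudt7 furthest left at -1.30.

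Among the enzymes of the fatty acid spiral, the multifunctional enzyme genes had the largest log2 differences, and the oxidases and thiolases overlapped between groups. Ehhadh, which hydrates and dehydrogenates straight-chain and dicarboxylic acyl-CoAs (chromosome 16, 21761287 to 21787807, minus strand, mm10), had 15.4, 69.0 and 32.9 FPKM in WT and 73.0, 92.2 and 131 in LKO. WT replicate 2 came within 4.06 FPKM of the lowest library labelled LKO, and the other WT libraries were far lower. The log2 difference was 1.51 ± 0.54 (SE, limma, 95% interval 0.25 to 2.78, adjusted p = 0.446). Leaving out WT replicate 1 gave 0.99, and leaving out WT replicate 2 gave 2.04. Hsd17b4, the multifunctional enzyme for branched and bile acid intermediates, was at 53.4, 111 and 98.8 FPKM in WT and at 113, 144 and 164 in LKO. The gap between the highest WT and the lowest LKO library was 1.49 FPKM. Its log2 difference was 0.72 ± 0.37 (SE, limma adjusted p = 0.624), and 0.40 without WT replicate 1.

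The branched-chain oxidase gene Acox2 overlapped between groups, at 19.6 to 39.2 FPKM in WT and 28.6 to 41.7 in LKO (log2 difference 0.14, limma adjusted p = 0.948). Acox3, another branched-chain oxidase, was the lowest-expressed member of the spiral, at 1.19 to 1.63 and 1.30 to 2.50 FPKM. The thiolase genes Acaa1a and Acaa1b, close copies that lie near each other on chromosome 9, cleave the shortened chain. Acaa1b was at 355, 845 and 493 FPKM in WT and at 537, 782 and 1046 in LKO. Acaa1a was at 45.0 to 60.0 and 45.4 to 79.7 FPKM. The ratio of Acaa1b to Acaa1a was between 7.88 and 14.1 in WT and between 11.1 and 13.1 in LKO, so both groups overlapped in the ratio too. Reads may be shared between these copies, and their levels are uncertain to that extent. Scp2, the thiolase and sterol carrier of the bile acid branch, was at 560, 787 and 736 FPKM in WT and at 526, 706 and 802 in LKO, with a log2 difference of -0.04 (95% interval -0.85 to 0.77, limma). Amacr, the racemase that prepares branched substrates, was at 30.4 to 48.2 FPKM in WT and 16.9 to 57.6 in LKO.

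The auxiliary enzymes that process double bonds all overlapped between groups. Ech1, a dienoyl-CoA isomerase, was the most abundant, at 65.7, 167 and 135 FPKM in WT and 123, 178 and 142 in LKO. Both groups were low in replicate 1 and high in replicate 2. Eci2, an enoyl-CoA isomerase, was at 22.4 to 41.5 and 38.5 to 55.4 FPKM, and the dienoyl-CoA reductase gene Decr2 at 53.0 to 87.1 and 42.6 to 88.3. Their log2 differences were 0.35, 0.46 and -0.18. Alpha-oxidation, which removes a single carbon from phytanic acid, was represented by Phyh, the phytanoyl-CoA hydroxylase, at 544, 770 and 802 FPKM in WT and 494, 1019 and 936 in LKO. Its partner lyase gene Hacl1 was at 2.62 to 4.49 and 2.32 to 5.43 FPKM. Neither group stood above the other for these genes, with log2 differences of 0.16 and 0.06.

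The transporters overlapped between groups, and the acyl-CoA carriers spread widely within each genotype. Abcd3, which imports branched and dicarboxylic acyl-CoAs, was at 24.8, 78.8 and 28.5 FPKM in WT and at 24.1, 50.9 and 102 in LKO. WT replicate 2 lay above LKO replicates 1 and 2. The log2 difference was 0.38 ± 0.62 (SE, limma adjusted p = 0.910), and -0.12 without LKO replicate 3. Abcd2, its relative for very long-chain unsaturated substrates, was at 3.11, 1.63 and 0.452 FPKM in WT and 0.569, 2.43 and 9.60 in LKO. Its log2 difference of 0.62 moved to -0.11 without LKO replicate 3. Slc25a17, the carrier of CoA and other cofactors, was at 8.05 to 15.3 and 14.8 to 21.2 FPKM (log2 difference 0.42, limma adjusted p = 0.770).

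Crot, the carnitine octanoyltransferase that hands shortened chains to mitochondria, was nearly constant in WT, at 40.3, 40.0 and 39.8 FPKM. Its LKO levels were 89.5, 52.1 and 103 FPKM, so all libraries labelled LKO stood above WT. Unlike most members, Crot did not differ between the WT libraries numbered 1 and 2. The means were 40.0 ± 0.266 and 81.6 ± 26.5 FPKM (SD, n = 3 per group), and the log2 difference was 0.95 ± 0.33 (SE, limma, 95% interval 0.17 to 1.73, adjusted p = 0.437). With array quality weights it was 0.58. Crat, the carnitine acetyltransferase, was at 3.52 to 7.94 FPKM in WT and 4.36 to 7.71 in LKO.

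Nudt7, a hydrolase that splits CoA and acyl-CoA inside peroxisomes (chromosome 8, 114133557 to 114154739, plus strand), was the member furthest below WT. Its levels were 75.4, 91.0 and 106 FPKM in WT and 24.8, 38.2 and 49.4 in LKO. The highest library labelled LKO was 26.0 FPKM under the lowest WT library. The WT mean was 2.42 times the LKO mean, and the log2 difference was -1.30 ± 0.34 (SE, limma, 95% interval -2.10 to -0.49, adjusted p = 0.306). It stayed between -1.52 and -1.03 with each library left out. The related hydrolases did not separate the groups: Nudt19, also a CoA hydrolase, was at 12.7 to 22.3 and 15.9 to 25.8 FPKM, and Nudt12, which acts on nicotinamide dinucleotides, at 8.77 to 12.2 and 5.12 to 13.4. Their log2 differences were 0.22 and -0.23.

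Hao2, an oxidase of medium and long-chain hydroxy acids (chromosome 3, 98874521 to 98893239, minus strand), had the largest difference of all members. It was at 0.127, 0.305 and 0.156 FPKM in WT, from 5, 11 and 5 reads, and at 4.69, 2.28 and 10.3 FPKM in the libraries labelled LKO, from 122, 73 and 402 reads. Every library labelled LKO was therefore well above WT, with a wide spread among themselves. The Hao2 mean was 0.196 FPKM in WT and 5.76 in LKO. It thus passed the filter of 0.5 FPKM only through the libraries labelled LKO, and without their rise it would not have been tested. The log2 difference was 2.32 ± 0.42 (SE, limma, 95% interval 1.33 to 3.31, adjusted p = 0.153). The log2(FPKM + 1) scale understates the change of so low a gene, and the difference was 4.10 with a pseudocount of 0.1 and 4.65 with voom on recovered reads. The LKO mean was 29.4 times the WT mean, a ratio that rests on few WT reads. Its family member Hao1, the glycolate oxidase of hepatocytes, did not separate the groups, at 56.6, 99.0 and 88.6 FPKM in WT and 67.7, 108 and 84.7 in LKO (log2 difference 0.10, 95% interval -0.70 to 0.91, limma). Hao1 exceeded Hao2 by 324 to 567 times in WT and by 8.20 to 47.3 times in LKO.

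Agxt, the transaminase that detoxifies the glyoxylate made by HAO1, was at 214, 164 and 178 FPKM in WT and 79.3, 107 and 136 in LKO. All libraries labelled LKO lay below WT, although LKO replicate 3 came within 27.9 FPKM of WT replicate 2. The log2 difference was -0.81 ± 0.33 (SE, limma adjusted p = 0.505), and -0.50 without both libraries numbered 1. Catalase, the enzyme that breaks down hydrogen peroxide and the most abundant member on the FPKM scale, was at 623, 1339 and 1167 FPKM in WT and 557, 1109 and 1197 in LKO. Replicate 1 was the lowest library in both genotypes, and the groups overlapped almost entirely (log2 difference -0.13, 95% interval -1.23 to 0.97, limma). Uox, urate oxidase, was at 199 to 554 and 241 to 543 FPKM, and Pipox, which oxidizes pipecolic acid and sarcosine, at 86.6 to 104 and 83.8 to 147. Dao, the D-amino acid oxidase, was listed at 0 in all 6 libraries and so did not pass the filter.

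**Figure D2:**
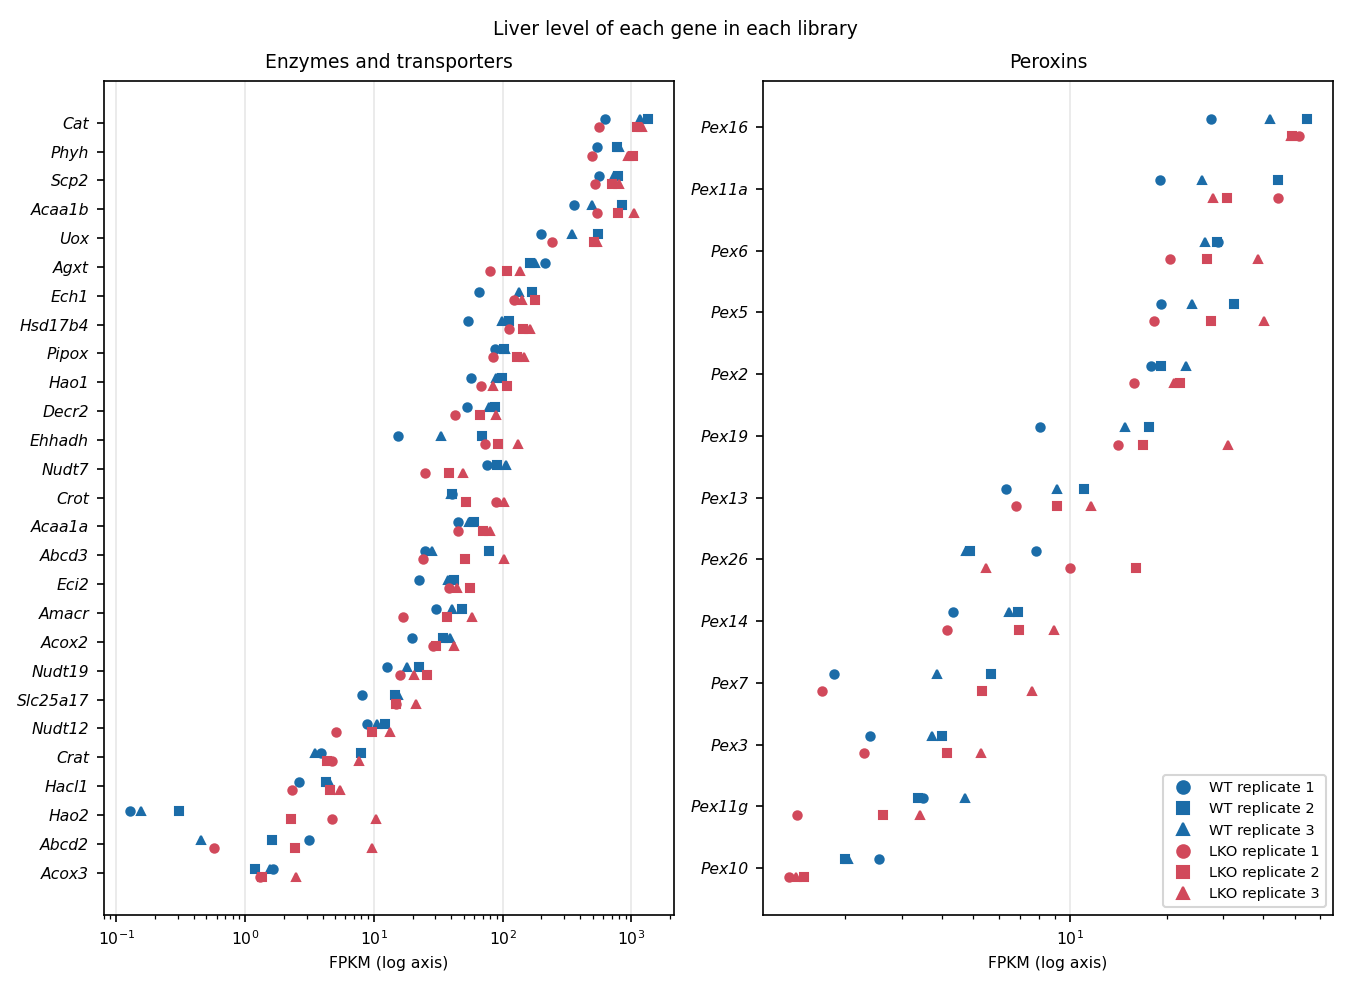
FPKM (log axis) of the 40 members above the filter in each of the 6 libraries, with enzymes and transporters on the left and peroxins on the right, ordered by mean level. Colour gives the genotype label and marker shape the replicate number; Hao2 shows WT at 0.127 to 0.305 and LKO at 2.28 to 10.3, and circles (replicate 1) sit at the low end for most genes.

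Peroxins were expressed at lower levels than the enzymes, with a median over genes of 9.02 FPKM against 60.8, and 12 of the 13 overlapped between groups. The import receptors Pex5 and Pex7, which recognise signals at the end or the start of a cargo protein, were at 19.2 to 32.5 and 1.84 to 5.70 FPKM in WT and at 18.2 to 40.1 and 1.69 to 7.64 in LKO. Of the docking proteins, Pex13 was at 6.33 to 11.1 and 6.81 to 11.7 FPKM, and Pex14 at 4.33 to 6.91 and 4.14 to 8.90. Their log2 differences lay between 0.05 and 0.22, and the groups overlapped for each of them.

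Pex10 and Pex2 encode ring-finger ubiquitin ligases that recycle the import receptor. Pex10 was at 2.55, 2.0 and 2.04 FPKM in WT and at 1.34, 1.49 and 1.40 in LKO, from 105 to 162 and 56 to 88 reads. All libraries labelled LKO were lower and close to each other, but the difference was small, -0.40 ± 0.19 (SE, limma adjusted p = 0.588) on the log2 scale, and -0.63 with voom on recovered reads. Pex2 did not follow it, at 17.9 to 22.9 FPKM in WT and 15.8 to 22.0 in LKO. The receptor is pulled out of the membrane by an ATPase that includes Pex6, anchored by Pex26. Pex6 was at 28.9, 28.6 and 26.4 FPKM in WT and 20.4, 26.7 and 38.6 in LKO, with a log2 difference of -0.01. Pex26 was at 7.84, 4.87 and 4.76 FPKM in WT and 10.0, 16.1 and 5.47 in LKO. LKO replicate 3 lay within WT, and the log2 difference of Pex26 was 0.68 (limma adjusted p = 0.674), moving to 0.34 without LKO replicate 2 and to 1.04 without LKO replicate 3.

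Among the peroxins that insert membrane proteins, Pex16 was the most abundant, at 27.5, 54.8 and 42.0 FPKM in WT and at 51.8, 49.2 and 48.7 in LKO. The libraries labelled LKO were alike and lay within the WT range. Pex19, the carrier of membrane proteins, was at 8.09 to 17.7 FPKM in WT and 14.1 to 31.0 in LKO (log2 difference 0.56), and its docking partner Pex3 at 2.39 to 4.01 and 2.29 to 5.29. Of the division factors, Pex11a, which is inducible by PPAR-alpha ligands, was at 19.1, 44.4 and 25.8 FPKM in WT and 44.4, 30.9 and 27.8 in LKO. The highest WT and the highest LKO library were thus equal to 3 digits. Pex11g was at 3.36 to 4.73 FPKM in WT and 1.41 to 3.41 in LKO, overlapping narrowly (log2 difference -0.52, limma adjusted p = 0.650).

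The members varied together from library to library in both genotypes. Replicate 1 was the lowest library of both genotypes for 27 of 40 members (67.5%), against 27.3% of all tested genes. LKO replicate 3 was the highest of all 6 libraries for 24 members (60.0%), against 25.9% of all tested genes. The mean log2 deviation of the 40 members from the WT mean was -0.33, 0.28 and 0.05 in WT and -0.19, 0.27 and 0.57 in LKO. For all tested genes, whose mean a scaling between libraries holds near 0, the deviation lay between -0.04 and 0.04. The enzymes and the peroxins gave the same order, with LKO replicate 3 at 0.68 and 0.35 and WT replicate 1 at -0.36 and -0.26. The spread within genotype of the members' mean was 0.35 (SD). Reads of the mitochondrial genome made up 20.7%, 10.2% and 18.5% in WT and 27.6%, 7.72% and 4.76% in LKO, so within each genotype the library with the smallest mitochondrial share had the highest peroxisomal levels. The first principal component of all tested genes, with 43.7% of the variance, ordered libraries within each genotype in the same way, at -42.6, 20.4 and -6.58 in WT and -46.9, 24.0 and 51.7 in LKO. The part of this library pattern in the member values was not tested. Without both libraries numbered 1, no member passed the test either and the median was 0.21, with 30 of 40 members above 0.

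**Figure D3:**
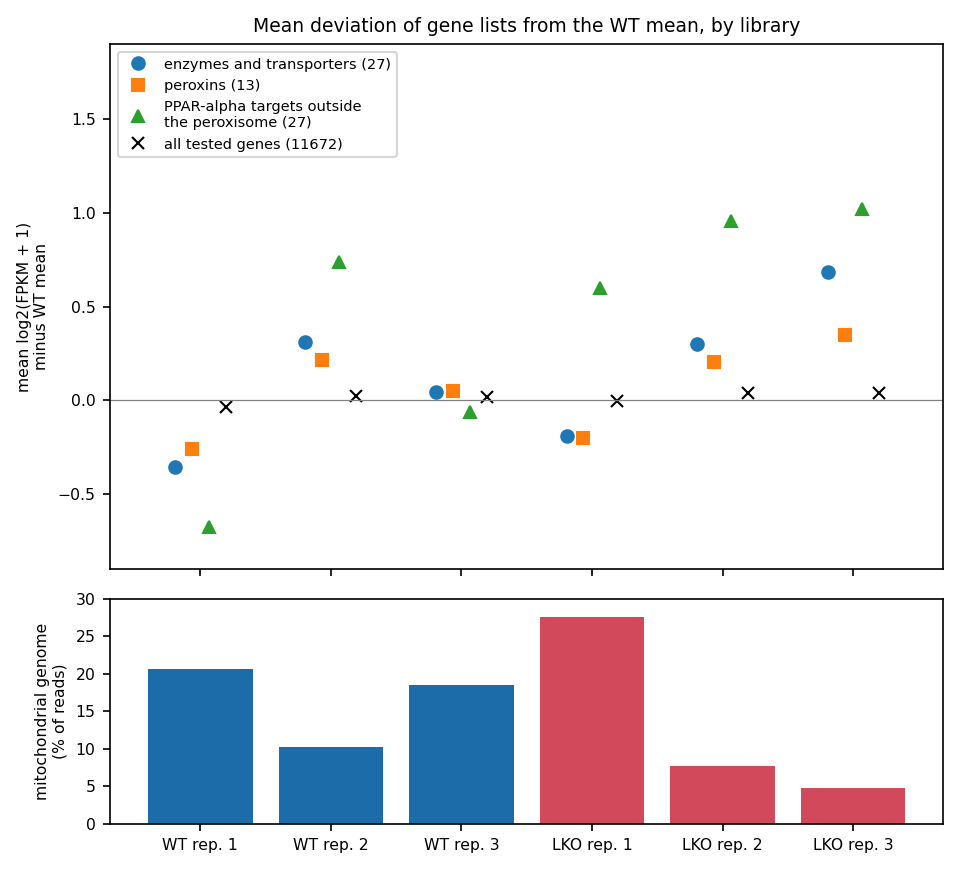
Top, mean log2(FPKM + 1) minus the WT mean in each library for 27 enzymes and transporters, 13 peroxins, 27 PPAR-alpha targets outside the peroxisome and all 11672 tested genes; bottom, share of reads from the mitochondrial genome. Peroxisomal genes are lowest in both replicate 1 libraries and highest in LKO replicate 3, where the mitochondrial share is 27.6% or 20.7% and 4.76%.

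Setting each member against the mean of the 40 in its own library, a description made after seeing this pattern, left Ehhadh, Hsd17b4 and Hao2 above WT in every library labelled LKO. On this scale 7 members lay below WT in every such library: Nudt7, Agxt, Scp2, Decr2, Nudt12, Pex13 and Pex11g. Of these, only Nudt7 and Agxt did so in FPKM. No share of all tested genes was computed on this scale, so these counts have no background to be read against. Relative Ehhadh values were 1.32, 1.19 and 1.38 above the WT mean in LKO replicates 1 to 3 on the log2 scale, closer together than their FPKM. Nudt7 was at -1.63, -1.48 and -1.43, and Agxt at -1.01, -1.04 and -1.01, both narrower than in FPKM. Crot and Pex10 overlapped on this relative scale. Because the members' mean was higher in LKO than in WT, the centring lowers every member's difference by the same amount, so the scale orders the members but sets no direction for them.

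Other peroxisomal genes, 52 chosen by function, were measured beside them: 45 passed the filter and none passed the test. Their median log2 difference was 0.18, with 32 above 0 (71.1%, with 54.1% of all tested genes). In every library labelled LKO, 7 lay above WT (15.6%, with 8.0% of all tested genes) and 0 below (with 7.42%). This list was chosen with earlier results of these data known. Acnat2, an acyltransferase of bile and fatty acids, was at 1.01, 3.98 and 2.06 FPKM in WT and 37.0, 47.3 and 14.1 in LKO (log2 difference 3.28, limma adjusted p = 0.135). Reads of Acnat2 may be shared with its close copy Acnat1.

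Of 13 regulators, none passed the test. Groups did not overlap for 3 above (23.1%, with 8.0% of all tested genes) and 0 below (with 7.42%). Pparg, which encodes PPAR-gamma, the receptor best known from fat cells, had the smallest p of the 13. Its levels were 0.018, 0.751 and 1.78 FPKM in WT, from 1, 39 and 82 reads. In LKO they were 4.21, 5.52 and 6.36 FPKM, from 158, 255 and 357 reads. All libraries labelled LKO lay above WT (log2 difference 1.89 ± 0.37 SE, limma adjusted p = 0.187), and with array quality weights Pparg passed (1.44, limma adjusted p = 0.0302). Of 6 adipocyte markers 1 passed the filter, Lep, Retn and Plin1 were listed at 0, and all 6 summed to 1.23 to 1.66 FPKM in WT and 0.859 to 3.29 in LKO. Ppara, the receptor PPAR-alpha itself, was at 6.41, 9.60 and 7.99 FPKM in WT and 10.6, 9.89 and 24.9 in LKO. Every library labelled LKO was above WT, by 0.286 FPKM at the narrowest (log2 difference 0.74 ± 0.38 SE, limma adjusted p = 0.628, and 0.33 without LKO replicate 3). Among 28 PPAR-alpha targets outside the peroxisome, chosen with earlier results known, 27 passed the filter and none passed the test. Of these, 24 lay above 0 (88.9%, with 54.1% of all tested genes), with a median of 0.54. Groups did not overlap for 7 above (25.9%, with 8.0% of all tested genes) and 1 below (3.70%, with 7.42%). The part of the choice of genes in these shares was not tested. By library, the mean log2 deviation of these 27 targets from the WT mean was -0.67, 0.74 and -0.06 in WT. In LKO the deviation was 0.60, 0.96 and 1.02, so WT replicate 2 lay above LKO replicate 1. Cyp4a10, a fatty acid omega-hydroxylase, was at 11.9, 132 and 71.5 FPKM in WT and at 369, 312 and 294 in LKO. WT replicate 2 was the highest WT library and WT replicate 1 the lowest for Cyp4a10, as for Ehhadh.

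Across the alternatives run, the direction of the 7 members with groups that do not overlap stayed as in all 6 libraries. For most settings this was fixed by their choice: leaving out, weighting or blocking libraries, or changing the pseudocount or filter, cannot turn the sign. Only a rescaling between libraries, as in scaling to library totals or quantile normalization, could have turned it. With array quality weights, Hao2 (1.80, limma adjusted p = 0.0173) and Pex26 (1.27, limma adjusted p = 0.0320) passed as higher and Nudt7 (-1.39, limma adjusted p = 0.0158) as lower. That setting called 5.32% of all tested genes higher and 4.92% lower, so 2 and 1 of 40 members are near the background. With the other alternatives, no member passed.

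**Figure D4:**
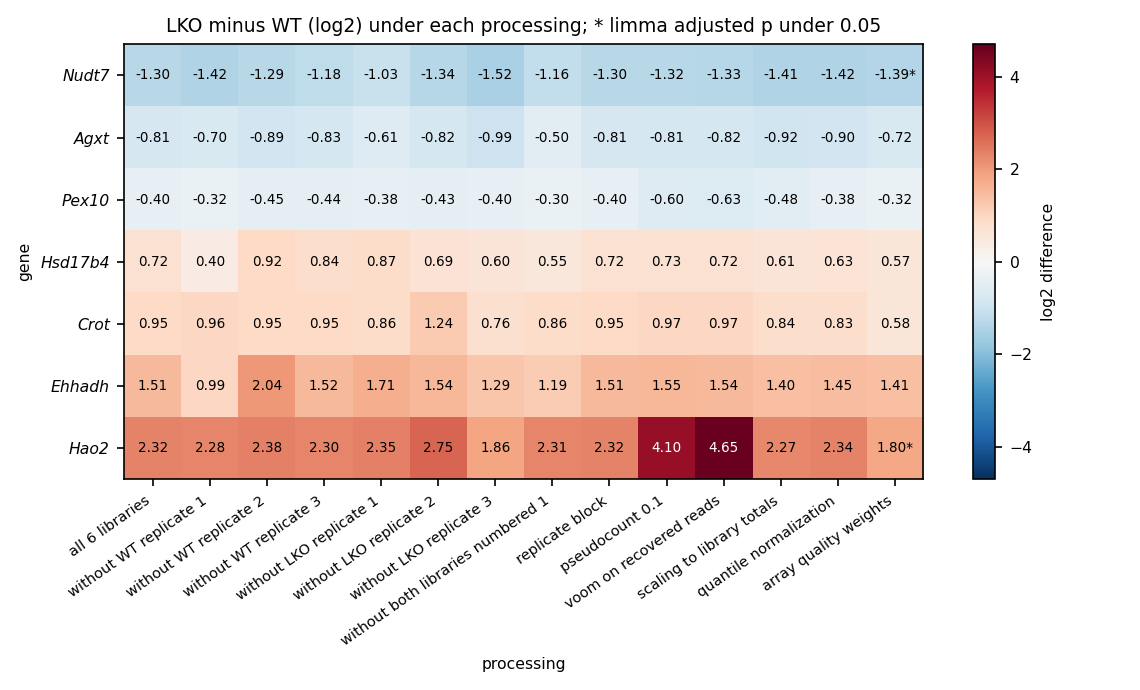
Log2 difference (LKO minus WT, colour and printed value) of the 7 members whose groups do not overlap, by gene (vertical) and processing (horizontal). Every gene keeps its sign in each column, which the choice of these genes fixes except where libraries are rescaled. Hao2 is highest with voom on recovered reads (4.65), and asterisks for a limma adjusted p under 0.05 stand only in the column of array quality weights.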

How the data were processed

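Total RNA was prepared with TRIzol and a column kit and made into libraries with a NEBNext Ultra kit, per the labels' protocols. Tools listed in the submitters' processing notes, with no role for any, were featureCounts 1.5.0-p3, HISAT2 2.0.5, DESeq2 1.20.0 and CASAVA, and the build was mm10. The sources used here do not state the annotation or the strand setting. The authors deposited FPKM, 1 value per gene and library. FPKM multiplied by merged exon length in GENCODE vM21, which held the symbols and coordinates, fell on steps of 1 read, with 96.1% to 96.4% of values above 0 whole within 0.05 read, so reads were recovered. The value of 1 read varied between libraries as size factors from medians of ratios do (ratio 0.995 to 1.00), so the FPKM may already be scaled between libraries. Genotypes were taken from titles and compared with limma-trend 3.58.1 (R 4.3.3, robust) on log2(FPKM + 1), over the 11672 genes whose mean reached 0.5 FPKM, two-sided, Benjamini-Hochberg threshold 0.05. With 3 libraries per group, an exact permutation test of a single gene cannot go below p = 0.1. On simulated data the fit called 0 of 82 genes changed 2-fold, 10 of 56 changed 4-fold and 41 of 62 changed 16-fold. It also called 2 unchanged genes. In the simulation only genes above a minimum mean read count were changed, and each gene was drawn independently. These shares may thus not hold for members with few reads or for members that vary together. A member that did not pass the test may therefore still differ. Members and lists were chosen with earlier results of these data known. Per-library values were given for members with an unadjusted p under 0.05 or groups that do not overlap and for the most abundant member of each role; others are named by range. Outside the members, up to 3 genes with the smallest p per list could be named, some of which are not reported here; Cyp4a10 was named after its values were seen. No pair of libraries shared an identical value above 0 for any gene. Tables and figures used matplotlib 3.10.9 and pandas 2.3.3 under Python 3.11.15.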

Additional observations from a re-analysis of the deposited data

How the results depend on the processing

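Of 15 alternatives, 14 called no member. Array quality weights called 3 members and 1195 genes, against 0 members and 5 genes with all libraries weighted equally. The count of genes called was 1 with no filter, 2 without both libraries numbered 1 and 3 with quantile normalization. It ranged from 0 to 17 with each library left out, with 0 without WT replicate 3 and 17 without LKO replicate 3. The replicate numbers did not pair the libraries throughout: same-numbered libraries had deviations correlated at 0.49, 0.30 and -0.02. The libraries numbered 1 correlated best with each other in both directions, and those numbered 2 and 3 did not. A fit with the replicate number as a block called 0 genes and 0 members, with 1478 genes and 6 members at an unadjusted p under 0.05. Of 40 members, 17 kept their direction under all alternatives, among them those whose groups do not overlap. With each library left out in turn, the log2 difference turned over for Acox2 (-0.15 to 0.33), Acox3 (-0.078 to 0.23), Scp2 (-0.19 to 0.13), Amacr (-0.62 to 0.24), Ech1 (-0.039 to 0.63), Decr2 (-0.42 to 0.10), Phyh (-0.032 to 0.49) and Hacl1 (-0.14 to 0.34). It did so for Abcd2 (-0.11 to 1.27), Abcd3 (-0.12 to 0.89), Crat (-0.068 to 0.46), Nudt12 (-0.50 to 0.11), Hao1 (-0.13 to 0.27), Uox (-0.11 to 0.64) and Cat (-0.47 to 0.22). Among peroxins it did so for Pex5 (-0.13 to 0.41), Pex7 (-0.13 to 0.71), Pex13 (-0.14 to 0.23), Pex14 (-0.088 to 0.38), Pex2 (-0.12 to 0.11), Pex6 (-0.25 to 0.19), Pex3 (-0.065 to 0.40) and Pex11a (-0.0084 to 0.58). Arid2 ranged from -0.19 to 0.12. Without both libraries numbered 1, the sign turned for Acox2 (-0.049), Amacr (0.065), Pex2 (0.036), Pex6 (0.22) and Pex11a (-0.20). Scaling to library totals turned Hacl1 (-0.024), Hao1 (-0.010) and Pex13 (-0.046). Quantile normalization turned Hao1 (-0.020) and Pex13 (-0.056), and array quality weights turned Acox2 (-0.21), Acox3 (-0.014) and Pex6 (0.026). The cause was not tested, and fewer libraries give a weaker test. Depth limited low members such as Hao2 in WT, where 5 to 11 reads stood behind each value.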

Other observations

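The genes around Hao2 were looked at within 500 kb on either side, a window chosen after its values were seen. Of 5 genes tested there, Hao2 included, 2 lay above WT on average and 3 below. Hsd3b5, a steroid dehydrogenase gene of male mouse liver, whose end is 244 kb from Hao2, was at 60.4, 125 and 79.4 FPKM in WT and at 0.966, 0.248 and 0.136 in LKO. It fell by 5.92 ± 0.36 on the log2 scale (SE, limma adjusted p = 0.00482), opposite in direction to the difference of Hao2. Its relative Hsd3b2, 150 kb from Hao2, was at 45.7, 21.3 and 41.3 FPKM in WT and 10.1, 4.81 and 9.90 in LKO, with a log2 difference of -1.99 (limma adjusted p = 0.188). Reads may be shared among the Hsd3b genes, which are close copies. Hsd3b3 and Wars2 overlapped between groups, with log2 differences of -0.35 and 0.08.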
